A study of Mus musculus with 12 samples.

Results

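The expression of 4 genes, Ntrk2, Ttyh1, Vamp1 and Tmc5, was followed across the treatment groups of the PyMT mammary carcinoma model. They were chosen by the direction of their measured expression, because the study lists each of them with one direction for DOX/IgG1 relative to IgG1 and the other for DOX/anti-PD-1 relative to DOX/IgG1. All 4 were found by symbol among the 21960 genes listed for each tumor. Both of these comparisons contain the same 3 DOX/IgG1 tumors, so a high or low value in those tumors alone gives opposite signs in the pair. The values in these comparisons are therefore a description, with no test, and nothing is read from their signs.

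The tumors came from female C57BL/6 mice that carry the polyoma virus middle T oncogene under the MMTV promoter, which is active mainly in mammary epithelium. The mice develop tumors in their mammary glands without transplantation, and their ages at treatment were not given. RNA from whole snap frozen tumors was sequenced in 12 tumors, 3 in each of 4 groups. The IgG1 group received an isotype control antibody and the anti-PD-1 group the antibody 4H2 against mouse PD-1, both at 20 mg/kg first and 10 mg/kg afterwards, from a tumor diameter of 0.6 cm. The DOX/IgG1 and DOX/anti-PD-1 groups received the same antibodies at 10 mg/kg together with weekly doxorubicin at 5 mg/kg, from a diameter of 1 cm. The labels give 5 weeks of treatment for all groups, while the methods of the study describe a shorter schedule without doxorubicin. Doxorubicin thus cannot be told apart from the antibody dose, the tumor size at the start and the schedule in any comparison across it. Values are in TPM, the transcripts of a gene scaled for its length and for the total of the tumor, and differences are on the scale of log2(TPM + 1), which understates changes of low genes. Read counts were not among the values used here, and sequencing depth is therefore unknown.

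Ntrk2 encodes TrkB, the receptor tyrosine kinase for the neurotrophins BDNF and NT-4, which signals through adaptor proteins to the ERK, PI3K and phospholipase C pathways. Ttyh1 belongs to the Tweety family of membrane proteins, which have been linked to anion currents in swelling cells and are known mainly from neural tissue. Vamp1 encodes a vesicle SNARE, a protein on the vesicle membrane that pairs with SNAREs of the target membrane to drive fusion, best known at synapses. Tmc5 belongs to the transmembrane channel-like family, whose best known members serve mechanotransduction in hair cells of the inner ear, and the role of Tmc5 itself is little understood.

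In GENCODE vM21 on GRCm38, the Ensembl counterpart of mm10, Ntrk2 (ENSMUSG00000055254) lies on the plus strand at chr13:58806569-59133970 and Ttyh1 (ENSMUSG00000030428) on the plus strand at chr7:4119408-4136708. Vamp1 (ENSMUSG00000030337) lies at chr6:125215551-125245964 and Tmc5 (ENSMUSG00000030650) at chr7:118597297-118675086, also on the plus strand. The 4 genes do not neighbour each other. Ntrk2 has 7 protein-coding transcripts of 10, and full-length and truncated receptors cannot be told apart in values per gene. Ttyh1 shares 180 exonic bases with the antisense gene 9430041J12Rik and 244 with the antisense gene D030047H15Rik, neither of which is listed in the files. The strand setting of the quantification was not stated, so the Ttyh1 values are uncertain to that extent.

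The starts of Ntrk2, Ttyh1 and Vamp1, the members with the higher values in DOX/IgG1 tumors, are shown to let their promoters be compared. Each sequence is from RefSeq on GRCm38.p6, runs from 250 bases before to 50 bases after the start on the plus strand, and has matches to the searched motifs in capitals. The windows are chr13:58806319-58806618, chr7:4119280-4119579 and chr6:125215331-125215630.
Ntrk2: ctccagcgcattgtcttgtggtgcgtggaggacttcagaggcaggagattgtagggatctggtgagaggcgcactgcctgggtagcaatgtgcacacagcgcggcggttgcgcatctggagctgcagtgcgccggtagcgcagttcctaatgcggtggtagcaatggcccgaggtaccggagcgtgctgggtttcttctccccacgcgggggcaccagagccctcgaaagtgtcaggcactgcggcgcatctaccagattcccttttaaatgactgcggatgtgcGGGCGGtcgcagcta
Ttyh1: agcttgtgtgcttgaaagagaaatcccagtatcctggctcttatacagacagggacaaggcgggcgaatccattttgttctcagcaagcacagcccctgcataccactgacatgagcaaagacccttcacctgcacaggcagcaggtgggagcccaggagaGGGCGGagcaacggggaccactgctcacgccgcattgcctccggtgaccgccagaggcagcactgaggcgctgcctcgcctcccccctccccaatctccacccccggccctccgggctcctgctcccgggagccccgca
Vamp1: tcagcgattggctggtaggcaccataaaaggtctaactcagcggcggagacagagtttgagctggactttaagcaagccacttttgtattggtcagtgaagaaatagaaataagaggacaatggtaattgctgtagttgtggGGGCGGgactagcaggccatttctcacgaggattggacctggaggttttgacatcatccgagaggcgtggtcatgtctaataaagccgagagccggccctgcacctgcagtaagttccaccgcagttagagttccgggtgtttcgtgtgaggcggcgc
The 5 motifs were searched on both strands: the GC box GGGCGG, the core of the cAMP response element TGACG, the E-boxes CACGTG and CAGCTG, and the TATA motif TATAAA. Each of the 3 windows held 1 match to GGGCGG, which 35.7% of 32841 mouse promoters of this length hold as well. None of the other letters was found in these windows. They occur in 20.8% (TGACG), 7.2% (CACGTG), 16.3% (CAGCTG) and 13.6% (TATAAA) of promoters. The windows had 61.3%, 63.3% and 51.7% G and C in the order shown.

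One tumor was at the low end of overall measures before any gene was compared. DOX/IgG1 replicate 1 had the lowest mean correlation of log2 values across genes with the other 11 tumors, 0.937, while the others lay between 0.943 and 0.960. It also had the fewest genes above 0, 13856, against 14230 to 15426. DOX/anti-PD-1 replicate 3 was the next lowest in mean correlation, at 0.943. Replicate 1 had the fewest genes above 0 in the other groups too. The counts were 14267 in IgG1, 14349 in anti-PD-1 and 14230 in DOX/anti-PD-1.

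The receptor gene Ntrk2 measured 11.1, 13.6 and 19.9 TPM in IgG1 replicates 1 to 3 and 13.3, 25.8 and 63.9 TPM in the anti-PD-1 tumors. In DOX/IgG1 it measured 99.7, 31.3 and 37.7 TPM, and in DOX/anti-PD-1 6.74, 6.31 and 15.7 TPM. All DOX/IgG1 tumors were above all IgG1 and DOX/anti-PD-1 tumors, and the anti-PD-1 tumors spanned from the IgG1 range into that of DOX/IgG1. In whole tumors, fewer cells of a type and less RNA per cell cannot be told apart, here and for every gene that follows. The group means were 56.2 ± 37.8 TPM in DOX/IgG1, 34.3 ± 26.4 in anti-PD-1, 14.8 ± 4.52 in IgG1 and 9.59 ± 5.31 in DOX/anti-PD-1 (SD, n = 3). Neighbours in this order overlapped in their ranges.

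Ttyh1, the Tweety family gene, measured 7.45, 5.18 and 1.64 TPM in IgG1, was listed at 0 in anti-PD-1 replicate 1 and measured 3.93 and 5.15 TPM in replicates 2 and 3. The DOX/IgG1 tumors had 28.9, 32.3 and 14.4 TPM and the DOX/anti-PD-1 tumors 13.1, 0.72 and 5.75 TPM. The 3 DOX/IgG1 tumors were the highest of all 12, and the ranges of the other 3 groups overlapped each other. DOX/anti-PD-1 replicate 1, at 13.1 TPM, came close to the lowest DOX/IgG1 tumor. The means were 25.2 ± 9.54 TPM in DOX/IgG1, 6.54 ± 6.25 in DOX/anti-PD-1 and 4.76 ± 2.93 in IgG1 (SD, n = 3), and no mean is given for anti-PD-1 because of the value at 0.

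The vesicle SNARE gene Vamp1 measured 37.7, 65.5 and 46.7 TPM in IgG1 and 69.4, 25.4 and 93.5 TPM in anti-PD-1. It measured 269, 92.9 and 78.4 TPM in DOX/IgG1 and 19.0, 29.0 and 56.6 TPM in DOX/anti-PD-1. DOX/IgG1 replicate 1 was far above every other tumor, and anti-PD-1 replicate 3 lay between the other DOX/IgG1 tumors and replicate 1. The means were 147 ± 106 TPM in DOX/IgG1, 62.8 ± 34.5 in anti-PD-1, 49.9 ± 14.2 in IgG1 and 34.9 ± 19.5 in DOX/anti-PD-1 (SD, n = 3), and neighbouring groups overlapped.

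Tmc5, the gene of the TMC family, measured 25.0, 74.1 and 52.1 TPM in IgG1, 59.4, 59.9 and 82.0 TPM in anti-PD-1, 4.40, 16.3 and 9.56 TPM in DOX/IgG1 and 29.1, 42.9 and 32.5 TPM in DOX/anti-PD-1. The 3 DOX/IgG1 tumors were the lowest of all 12, and the DOX/anti-PD-1 tumors lay within the IgG1 range. The means were 67.1 ± 12.9 TPM in anti-PD-1, 50.4 ± 24.6 in IgG1, 34.8 ± 7.18 in DOX/anti-PD-1 and 10.1 ± 5.96 in DOX/IgG1 (SD, n = 3). IgG1 overlapped with both of its neighbours in this order.

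**Figure D1:**
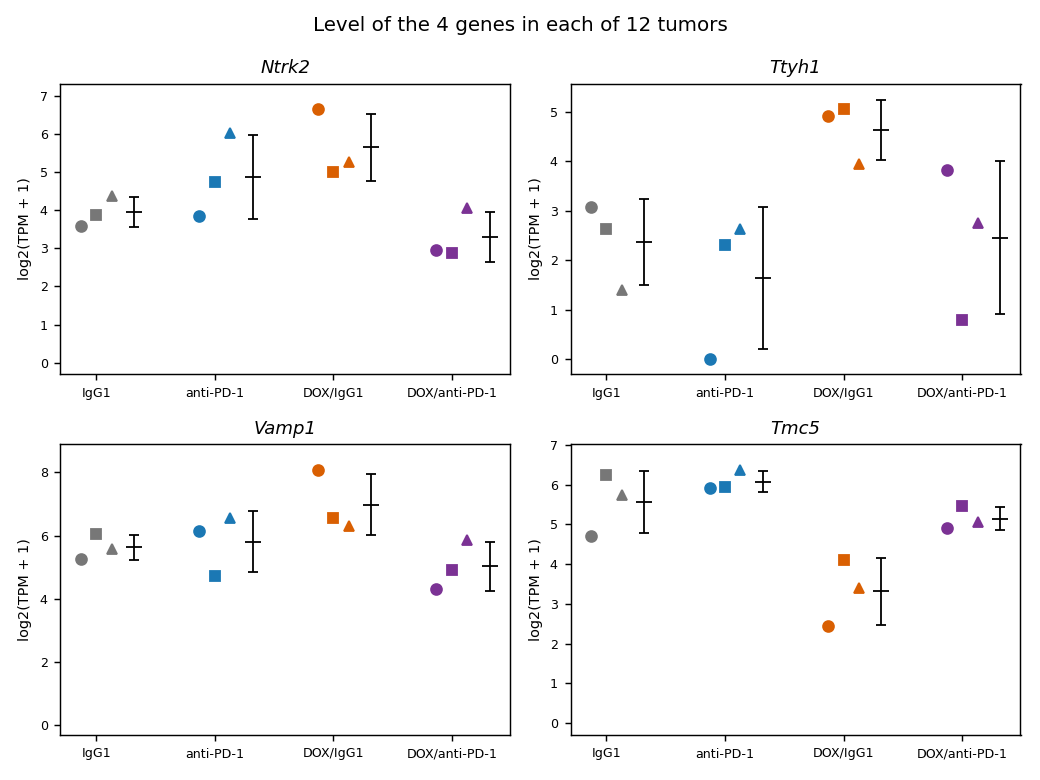
Level of each gene as log2(TPM + 1) on the vertical axis in the 12 tumors, by group, with circles, squares and triangles for replicates 1, 2 and 3 and bars for the mean and SD (n = 3). DOX/IgG1 tumors have the 3 highest values of Ttyh1 and the 3 lowest of Tmc5, while for Ntrk2 and Vamp1 an anti-PD-1 tumor, at 63.9 and 93.5 TPM, lies within the DOX/IgG1 range.

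In the comparisons used by the choice, the log2 fold changes in DOX/IgG1 against IgG1 were 1.70 (SE 0.45) for Ntrk2, 2.27 (SE 0.52) for Ttyh1, 1.35 (SE 0.45) for Vamp1 and -2.24 (SE 0.52) for Tmc5. Without DOX/IgG1 replicate 1 they were 1.19, 2.13, 0.80 and -1.80. For DOX/anti-PD-1 against DOX/IgG1 they were -2.35 (SE 0.51), -2.18 (SE 0.73), -1.95 (SE 0.53) and 1.83 (SE 0.45) in the same order, and -1.85, -2.05, -1.41 and 1.39 without that tumor. The ranges of the groups did not overlap for 4 of 4 genes in either comparison, as the choice of genes makes likely, beside 14% of 13874 and 10.2% of 13946 genes tested. A gene was called where its limma adjusted p was under 0.1 and its log2 fold change was over 1 in size. This called 5 genes, or 0.036%, in DOX/IgG1 against IgG1, none of them among the 4. It called 0% for DOX/anti-PD-1 against DOX/IgG1, where 655 genes had an unadjusted limma p under 0.05. Without that tumor it called 122 and 4 genes. The study made its lists, which hold the 4 genes, with DESeq2 at the same limits. Limma on TPM is another method, so calls missed here are not set against those of the study. Nothing is read from these counts for the 4 genes.

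Anti-PD-1 against IgG1 asks what the antibody does without chemotherapy, and the choice of genes did not use it. Its IgG1 arm served in the choice, which favours values above 0 for Ntrk2, Ttyh1 and Vamp1 and below 0 for Tmc5, so the p-values carry that bias and support nothing by themselves. The log2 fold change was 0.92 for Ntrk2 (SE 0.49) and 0.17 for Vamp1 (SE 0.43). It was 0.52 for Tmc5 (SE 0.37) and -0.73 for Ttyh1 (SE 0.71). None of the 4 passed in limma, with an adjusted p of 0.996 for each, beside 0% of 13692 genes called and 630 genes at an unadjusted p below 0.05. Exact two-sided permutation tests gave p = 0.3 for Ntrk2, 0.5 for Ttyh1, 0.8 for Vamp1 and 0.4 for Tmc5, where 0.1 is the smallest p that 3 tumors against 3 allow. The groups overlapped for all 4 genes, while 9.88% of genes tested had ranges that did not overlap. The sizes rested on single tumors, since Ntrk2 was at 0.34 without anti-PD-1 replicate 3 and 1.43 without replicate 1, and Tmc5 at 0.09 without IgG1 replicate 1 and 0.86 without replicate 2. For Ttyh1 the sign rests on the tumor listed at 0, since the value was 0.09 without anti-PD-1 replicate 1, and it was -1.68 with a pseudocount of 0.1. For Vamp1 it was -0.20 without anti-PD-1 replicate 3 and -0.01 without IgG1 replicate 1.

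DOX/anti-PD-1 against anti-PD-1 asks what doxorubicin adds to the antibody. The choice did not use this comparison but used the DOX/anti-PD-1 tumors, which favours values below 0 for Ntrk2, Ttyh1 and Vamp1 and above 0 for Tmc5. The p-values here carry that bias as well, and nothing rests on them. Tmc5 was lower in every DOX/anti-PD-1 tumor than in every anti-PD-1 tumor, with a log2 fold change of -0.93 (SE 0.25). Its limma adjusted p was 0.479 and its exact permutation p was 0.1, the smallest possible, and 14.9% of 13736 genes tested had ranges that did not overlap. Ntrk2 had a log2 fold change of -1.57 (SE 0.55), on the side the choice favours, with an adjusted p of 0.504 in limma and an exact permutation p of 0.2, and its groups overlapped. Vamp1 had -0.78 (SE 0.51) and Ttyh1 0.81 (SE 0.88), with limma adjusted p of 0.693 and 0.813 and exact permutation p of 0.3 and 0.5. None of the 4 was called, beside 0% of all genes, of which 1185 had an unadjusted p below 0.05 in limma. Without anti-PD-1 replicate 3, Ntrk2 was at -1.0 and Vamp1 at -0.40, and with single tumors left out Vamp1 ranged from -1.32 to -0.40. The Ttyh1 value was -0.01 without anti-PD-1 replicate 1 and 1.64 with a pseudocount of 0.1.

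**Figure D2:**
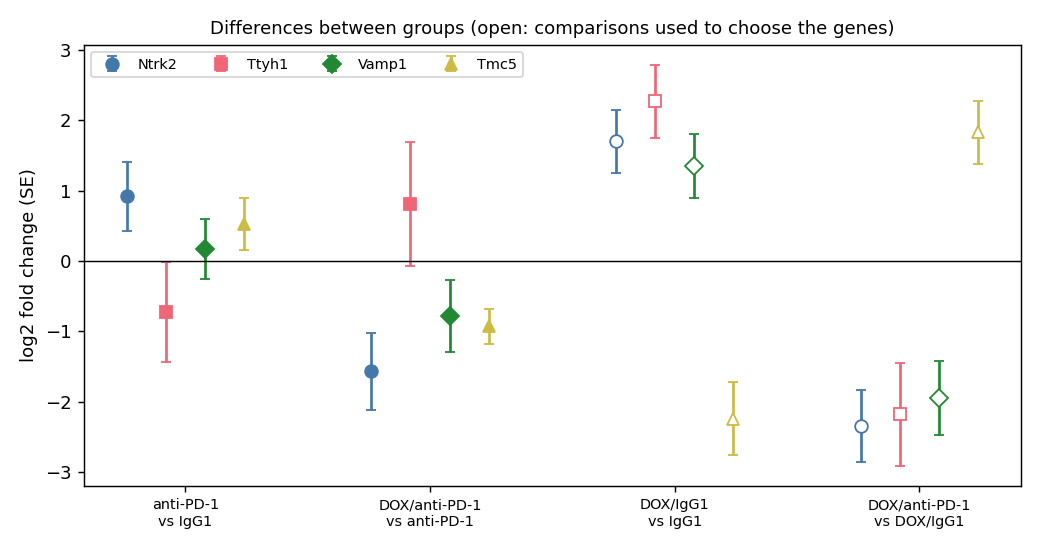
Log2 fold change of each gene with its SE on the vertical axis in 4 comparisons, each between 3 and 3 tumors. Filled points are comparisons that were tested and open points those used to choose the genes, so the open points, from -2.35 to 2.27, are a description.

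The difference between the antibody effect with and without doxorubicin was -3.27 (SE 0.78) for Ntrk2, -2.13 (SE 0.76) for Vamp1, -1.45 (SE 1.13) for Ttyh1 and 1.31 (SE 0.61) for Tmc5 on the log2 scale. These were -2.77, -1.58, -1.32 and 0.87 without DOX/IgG1 replicate 1. Both comparisons used by the choice are part of this contrast, and only the anti-PD-1 group did not serve in the choice, so no test is given. Over all 14735 genes limma called 0.00679%, which is 1 gene, Bpifa2. With each of the 12 tumors left out in turn, Bpifa2 was called only without DOX/IgG1 replicate 1, and another gene was called without DOX/anti-PD-1 replicate 3.

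Of the neurotrophin ligands, Ntf5, which encodes NT-4, measured 2.59 to 10.8 TPM and Bdnf 0.49 to 4.23 TPM over the 12 tumors. Ntf3 did not exceed 1.28 TPM. Among the receptors, Ngfr did not exceed 3.46 TPM. Sort1, a sorting receptor that binds neurotrophin precursors, measured 35.0 to 90.0 TPM, and Sorcs2 measured 7.36 to 20.6 TPM.

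Ntrk3, the receptor for NT-3, measured 9.12, 10.1 and 9.91 TPM in IgG1 and 4.96, 4.91 and 3.59 TPM in anti-PD-1. It measured 16.9, 18.5 and 18.9 TPM in DOX/IgG1 and 8.95, 7.19 and 22.3 TPM in DOX/anti-PD-1. Its anti-PD-1 values were the lowest of the 12, where Ntrk2 reached 63.9 TPM. Ntrk3 was not called in any comparison, with log2 fold changes of -0.97 (SE 0.32) in anti-PD-1 against IgG1, 0.83 (SE 0.29) in DOX/IgG1 against IgG1 and 1.18 (SE 0.45) in DOX/anti-PD-1 against anti-PD-1, and limma adjusted p of 0.996, 0.564 and 0.532. Without DOX/IgG1 replicate 1 the value against IgG1 was 0.88. Of 15 receptor adaptors 13 passed the filter on low values, or 14 for DOX/anti-PD-1 against DOX/IgG1, and of 10 ERK output genes 9 passed. None of those tested was called in any of the 4 comparisons with all tumors. The ERK phosphatase gene Dusp4 measured 10.6, 56.7 and 59.4 TPM in DOX/IgG1 and 18.7, 19.3 and 24.5 TPM in IgG1, so replicate 1 lay below every IgG1 tumor and the others above. Its log2 fold change in DOX/IgG1 against IgG1 was 0.66 with a limma adjusted p of 0.807, and 1.44 with 0.0821, a call, without replicate 1.

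All 9 ERK output genes tested were higher in value in DOX/IgG1 than in IgG1, where 60.6% of all genes tested were. Their median log2 fold change was 0.66 beside 0.12 over all genes, with Arc the highest at 1.25. Without DOX/IgG1 replicate 1, 8 of 9 were higher beside 61.7% of all genes, with a median of 0.72 beside 0.15, and Dusp4 was the highest, with Arc at 1.35. For DOX/anti-PD-1 against DOX/IgG1, 1 of 9 was higher beside 46.3% of all genes, with a median of -0.38 beside -0.04. That was 0 of 9 beside 43.2%, with a median of -0.32 beside -0.07, without that tumor. In anti-PD-1 against IgG1, 4 of 9 were higher beside 47.2% of all genes, with a median of -0.16 beside -0.03. In DOX/anti-PD-1 against anti-PD-1, 6 of 9 were higher beside 60% of all genes, with a median of 0.19 beside 0.11. Nothing is read from these counts for Ntrk2.

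The Tweety relative Ttyh3 was more abundant than Ttyh1 in 11 of 12 tumors in TPM, with 16.1 to 54.1 TPM, and Ttyh2 measured up to 13.1 TPM. Neither was called. In DOX/IgG1 against IgG1 their log2 fold changes were -0.50 for Ttyh3 and 0.71 for Ttyh2, beside 2.27 for Ttyh1. These were -0.95, 1.17 and 2.13 without DOX/IgG1 replicate 1. Of 12 anion and swelling channel genes, 10 were tested and none called. Ano1, a calcium-activated chloride channel, was at 457 to 1066 TPM the most abundant of them. Clcn2, a voltage-gated chloride channel, had log2 fold changes of 0.98 in DOX/IgG1 against IgG1 and -1.62 for DOX/anti-PD-1 against DOX/IgG1. These were the highest and the lowest of the 10, and without DOX/IgG1 replicate 1 they were 0.58 and -1.22, with Lrrc8c then the highest in the first at 0.66, where it was at -0.06 with all tumors.

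Of the other vesicle SNAREs, Vamp8 measured 58.4 to 127 TPM, Vamp4 51.7 to 99.8 TPM, Vamp2 24.3 to 65.2 TPM, Vamp3 24.4 to 48.6 TPM, Sec22b 19.4 to 35.9 TPM and Ykt6 12.4 to 26.8 TPM. Vamp7 was not listed. Vamp5, a SNARE known from muscle, measured 5.33, 1.15 and 0.40 TPM in IgG1 and 13.6, 23.4 and 8.11 TPM in DOX/IgG1. It had 9.81, 3.77 and 1.13 TPM in anti-PD-1 and 2.12, 3.21 and 8.89 TPM in DOX/anti-PD-1. None of the 7 other vesicle SNAREs was called. The Vamp5 log2 fold changes were 2.47 (SE 0.63) in DOX/IgG1 against IgG1 and -1.55 (SE 0.56) for DOX/anti-PD-1 against DOX/IgG1, with limma adjusted p of 0.46 and 0.988, and they were 2.48 and -1.56 without DOX/IgG1 replicate 1. Of 10 target membrane SNAREs 9 were tested, and of 15 SNARE regulators 12 were in the comparisons with DOX/IgG1 and 13 in the others, and none of those tested was called. The calcium sensor gene Syt1 was listed at 0 in 11 of 12 tumors, and the neuronal SNARE gene Snap25 did not exceed 3.03 TPM, so neither was tested.

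Among the 7 TMC genes other than Tmc5, Tmc4 was the most abundant with 109 to 191 TPM, followed by Tmc6 with 12.8 to 63.1 TPM. Tmc7 measured 3.98 to 14.0 TPM and Tmc8 up to 6.49 TPM. Tmc1, Tmc2 and Tmc3 reached 0.81, 1.24 and 2.18 TPM. Of these 7 genes 5 were tested in anti-PD-1 against IgG1 and 4 in each of the other comparisons, and none of those was called. In DOX/IgG1 against IgG1 the log2 fold change of Tmc4 was -0.15 and that of Tmc6 -0.19, beside -2.24 for Tmc5. The direction of Tmc6 rests on DOX/IgG1 replicate 1, since without it the values were -0.36 for Tmc4, 0.34 for Tmc6 and -1.80 for Tmc5. Of 7 genes known as partners of TMC proteins, 3 were tested in each of the 4 comparisons and none called.

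**Figure D3:**
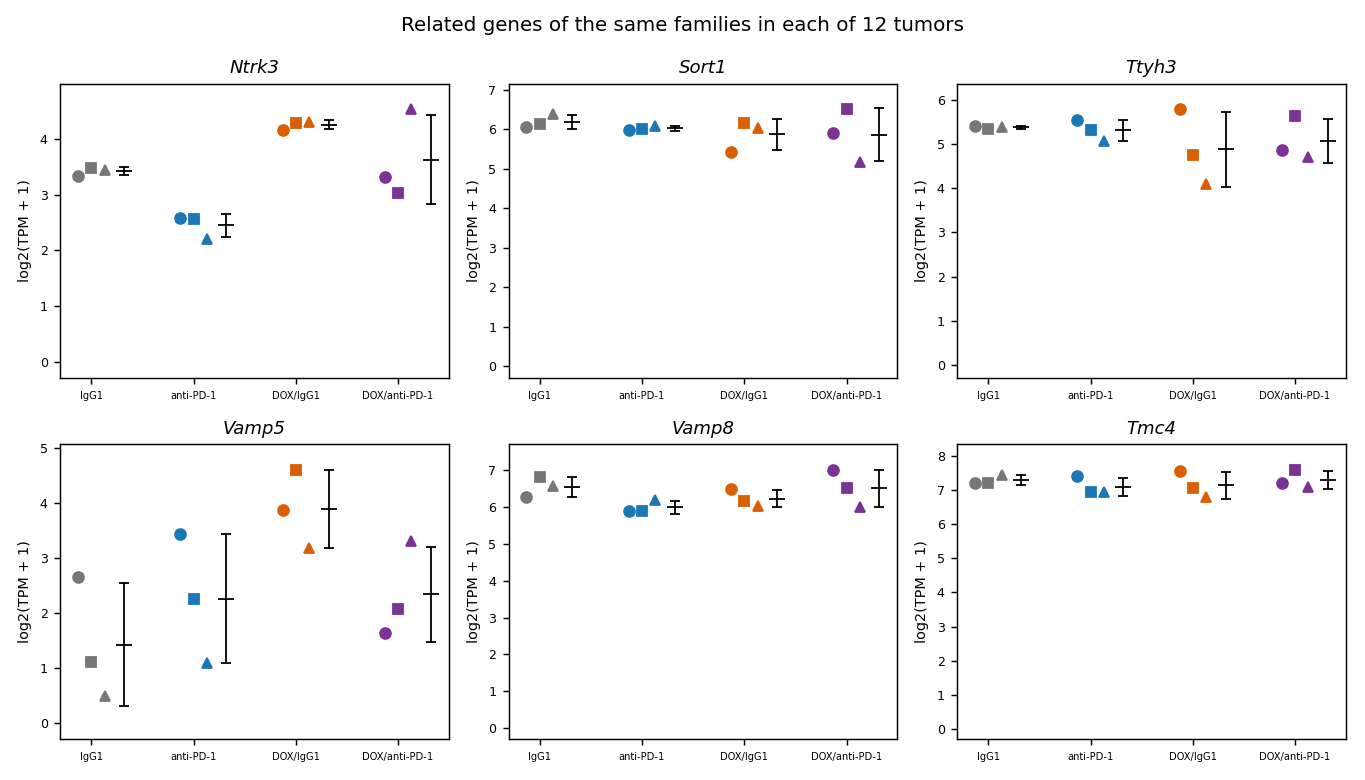
Level as log2(TPM + 1) on the vertical axis of 6 related genes described in the text, in 12 tumors by group, with symbols and bars as for the 4 genes. Ntrk3 and Vamp5 have their highest group means in DOX/IgG1, while Tmc4 stays between 109 and 191 TPM.

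Cd27 had the pattern most like that of Vamp1 among 14731 genes, with a Pearson r of log2(TPM + 1) of 0.98 over the 12 tumors, 0.97 after each group mean was subtracted and 0.94 over the 9 tumors without DOX/IgG1. These are descriptions, and the tumors of a group share their treatment. Cd27, a receptor of T cells, measured 23.6, 32.2 and 30.7 TPM in IgG1 and 26.5, 9.40 and 56.3 TPM in anti-PD-1. It measured 173, 59.5 and 40.8 TPM in DOX/IgG1 and 7.92, 16.6 and 34.6 TPM in DOX/anti-PD-1. The T cell genes of the leukocyte list had another order in DOX/IgG1, with 0.88, 24.6 and 15.7 TPM of Cd3e, 1.43, 5.25 and 7.51 of Cd4 and 1.16, 5.57 and 3.63 of Cd8a, so the tumor with the highest Cd27 was the lowest of its group in all 3. In the other groups they reached 14.6, 4.87 and 2.46 TPM. The part of T cells in the Cd27 and Vamp1 values was not tested.

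Cd27 lies on the minus strand at chr6:125232622-125237010, within the span of Vamp1 on the other strand, and so does Tapbpl at chr6:125223933-125231860. One coding transcript of Vamp1 reaches to 125241249 and spans both genes, while the other coding transcripts end by 125222306, before both. The noncoding transcripts Vamp1-204 and Vamp1-205 start at 125231276, inside Tapbpl, and reach past Cd27 to 125245964 and 125239934. Vamp1-204 holds 5709 exonic bases, where the whole of Vamp1 has 10167. In this annotation no exonic base is shared between Vamp1 and Cd27 or Vamp1 and Tapbpl. The annotation and strand setting the authors used were not stated, so the values of these overlapping genes are uncertain. Tapbpl measured 23.0, 22.2 and 21.2 TPM in IgG1, 26.9, 18.0 and 25.0 in anti-PD-1, 73.5, 36.4 and 21.3 in DOX/IgG1 and 13.4, 19.6 and 10.0 in DOX/anti-PD-1.

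**Figure D4:**
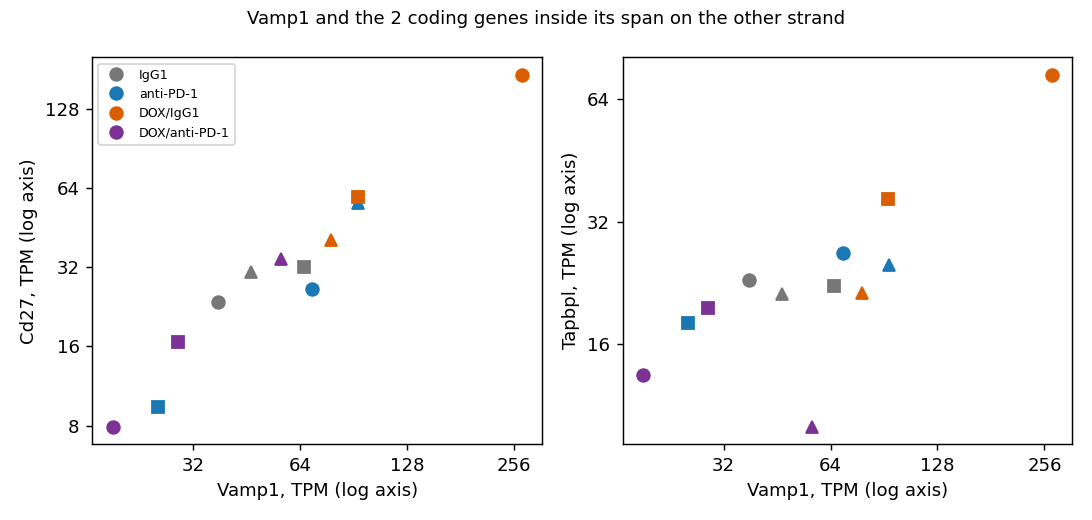
Cd27 (left) and Tapbpl (right) against Vamp1, in TPM on log axes, for 12 tumors coloured by group with circles, squares and triangles for replicates 1 to 3. DOX/IgG1 replicate 1 has the highest value of all 3 genes, 269 TPM of Vamp1, 173 of Cd27 and 73.5 of Tapbpl.

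For the other genes the closest patterns over 12 tumors were as follows. Those of Ntrk2 were Fzd3 (r 0.93), Cacng4 (0.88), Cacna1d (0.87), Olfr1318 (0.83) and Sh3bgrl2 (0.83), which include a Wnt receptor and calcium channel subunits. Among the genes closest to Ttyh1 were Adcy3 (0.88), Mterf2 (0.88), Ccdc32 (0.85) and Gm6377 (0.84). After Cd27, Vamp1 was closest to Cbx6 (0.88), Pfkfb4 (0.87), Zfp365 (0.85) and Shisa7 (0.85). Tmc5 was closest to Zfp395 (0.95), Npnt (0.94), Cpox (0.94), Kcnj16 (0.93) and Xbp1 (0.92). Xbp1, a transcription factor of secretory cells, measured 297 to 368 TPM in DOX/IgG1 and 544 to 1019 TPM in the other tumors, so the DOX/IgG1 tumors form a cluster in this pattern too. These lists depended on the measure. Ranking by Spearman's rho kept 2 of the 5 for Ntrk2, 1 for Ttyh1, 1 for Vamp1 and 2 for Tmc5, and ranking over the 9 tumors without DOX/IgG1 kept 1, 1, 1 and 0.

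With group means subtracted, the closest to Ntrk2 were Rftn1 (0.98), Snrnp200 (0.93), Rad9a (0.90), Rsl24d1 (0.89) and Tbp (0.88), and to Ttyh1 Rgs10 (0.91), Ctbp1 (0.89), Chp2 (0.89), Ccdc32 (0.88) and 1700001O22Rik (0.86). For Vamp1 they were Cd27 (0.97), Sdcbp2 (0.93), Tcf25 (0.91), Mink1 (0.91) and Pde9a (0.91), and for Tmc5 Zzef1 (0.96), Extl1 (0.95), Hibadh (0.95), Appbp2 (0.95) and Abi1 (0.94). Cd27 and Ccdc32 were named by both measures. For the others r over 12 tumors without the subtraction was 0.21 to 0.68 with Ntrk2, 0.27 to 0.68 with Ttyh1, 0.08 to 0.63 with Vamp1 and 0.13 to 0.63 with Tmc5. Over the 9 tumors without DOX/IgG1, also without the subtraction, it was -0.21 to 0.60, 0.46 to 0.93, 0.22 to 0.34 and 0.22 to 0.71 in the same order. Among the 4 genes themselves r over all 12 tumors is not used, since the DOX/IgG1 tumors form a cluster. Over the 9 other tumors r was 0.61 between Ntrk2 and Vamp1, 0.65 between Ntrk2 and Tmc5, 0.58 between Vamp1 and Tmc5, 0.06 between Ntrk2 and Ttyh1, -0.27 between Ttyh1 and Vamp1 and -0.38 between Ttyh1 and Tmc5. With group means subtracted in all 12 these were 0.63, -0.18, -0.10, 0.37, -0.07 and -0.17.

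The tumors held the markers of mammary epithelium, with Epcam at 418 to 954 TPM in the luminal list. The summed level of 9 genes of secretory alveolar epithelium was 1152, 3338 and 2631 TPM in DOX/IgG1, against 7594, 4917 and 8670 in IgG1, 6595, 10450 and 7536 in anti-PD-1 and 6154, 8537 and 3099 in DOX/anti-PD-1. The DOX/IgG1 tumors were below all IgG1 and anti-PD-1 tumors, while DOX/anti-PD-1 replicate 3 lay among them. The most abundant gene was the casein gene Csn3 at 812 to 9221 TPM, none of the 9 was at 0 in all tumors, and none was called. In DOX/IgG1 against IgG1, 1 of 9 was higher beside 60.6% of all genes tested, with a median log2 fold change of -1.78 beside 0.12. For DOX/anti-PD-1 against DOX/IgG1, which contains the same DOX/IgG1 tumors, 8 of 9 were higher beside 46.3%, with a median of 1.43 beside -0.04. Without DOX/IgG1 replicate 1 these were 0 of 9 with a median of -1.59 and 9 of 9 with a median of 1.20, beside 61.7% and 43.2% of all genes. The part of these cells in the values of Tmc5 or the other genes was not tested.

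The summed level of the 6 salivary gland genes listed was 60.1, 98.0 and 118 TPM in DOX/IgG1 and 5.40 to 25.4 TPM in the other 9 tumors. Amy1 was its most abundant gene, at 4.85 to 42.8 TPM. Bpifa2 measured 14.4, 21.3 and 53.7 TPM in DOX/IgG1 and was listed at 0 in the other 9 tumors. Smr3a measured 16.6, 10.2 and 14.8 TPM in DOX/IgG1 and 2.76 TPM in anti-PD-1 replicate 3 and was listed at 0 elsewhere. Both are among the 5 genes called in DOX/IgG1 against IgG1. They passed the filter on low values only through the DOX/IgG1 tumors, and the IgG1 values, all listed at 0, have no spread, so these calls are a description and no p is given. Of the 122 genes called without DOX/IgG1 replicate 1, which include both, Prol1 of the same list was at 3.16, and at 1.82 with an adjusted p of 0.733 in limma with all tumors. No gene was called without DOX/IgG1 replicate 3 or without any 1 of the IgG1 tumors, and 2 were without DOX/IgG1 replicate 2. The part of salivary tissue in the values of the 4 genes was not tested.

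Because 3 of the 4 genes are known from neural tissue, nerve markers were read as well. Of 8 neuron genes, Nefm, Elavl4 and Gap43 were listed at 0 in all tumors, the most abundant on average, Snap25, did not exceed 3.03 TPM, and Stmn2 reached 3.26 TPM in DOX/IgG1 replicate 1. The Schwann cell list summed to 139, 355 and 289 TPM in DOX/IgG1, 223, 194 and 217 in IgG1, 206, 190 and 235 in anti-PD-1 and 260, 258 and 249 in DOX/anti-PD-1. Its most abundant gene on average was Erbb3, at 43.6 to 81.6 TPM, which mammary epithelium also expresses, as it does Sox10. Foxd3 was listed at 0 in every tumor. S100b of this list measured 7.71, 25.7 and 25.5 TPM in DOX/IgG1, 3.63 to 6.89 in IgG1, 2.22 to 6.54 in anti-PD-1 and 3.28 to 10.4 in DOX/anti-PD-1. In DOX/IgG1 against IgG1 its log2 fold change was 1.60 with a limma adjusted p of 0.514, and 2.14 with 0.0704, a call, without DOX/IgG1 replicate 1. The part of nerve or Schwann cells in the values of the 4 genes was not tested.

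**Figure D5:**
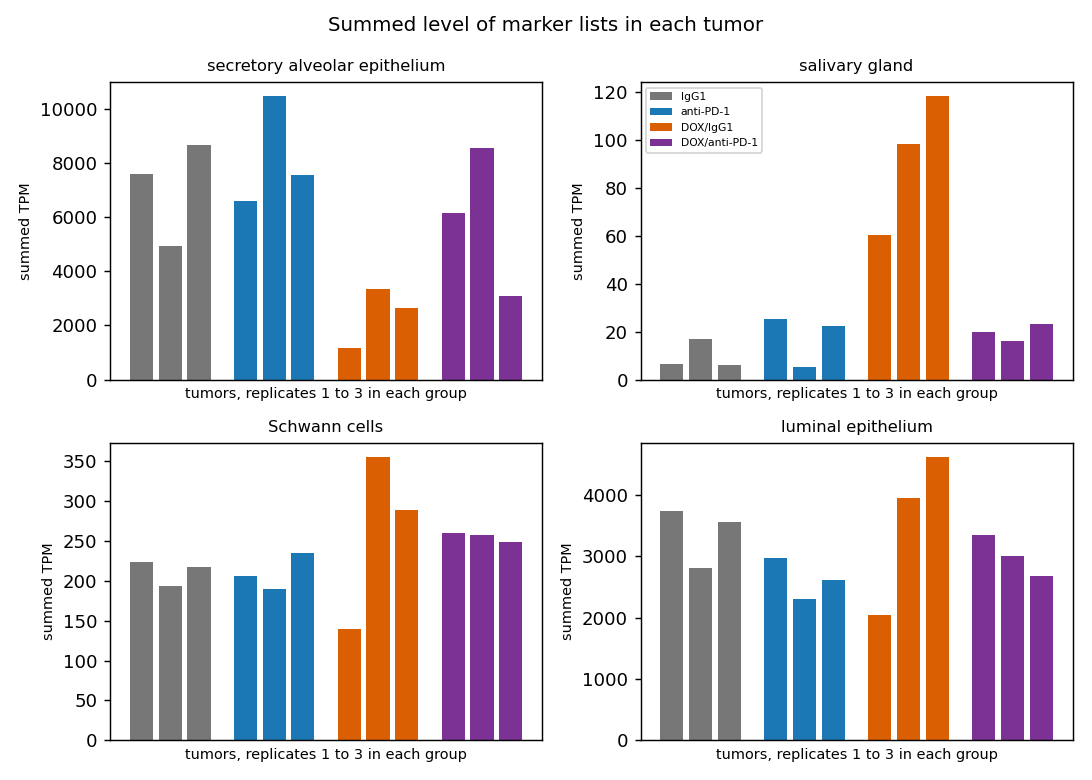
Summed TPM (vertical axis, from 0) of 4 marker lists in each tumor, with 3 bars for replicates 1 to 3 of each group. DOX/IgG1 tumors are at 60.1 to 118 in the salivary gland list, above the other tumors at 5.40 to 25.4, and DOX/IgG1 replicate 1 has the lowest sum of the other 3 lists.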

How the data were processed

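RNA from 12 whole tumors was sequenced with a stranded total RNA kit as single-end reads. Per the study's methods the authors trimmed reads with skewer, used STAR for alignment to mm10 and RSEM, within SeqBox, for gene levels. The authors deposited log2(TPM + 1) with decimal commas, 1 column per tumor. The header of DOX/IgG1 replicate 1 carries the word test, and nothing says what it means. Reversing the log2 step gave multiples of 0.01 TPM, with sums of 609418 to 725506 over the genes listed. No counts are held, so depth and counting error are unknown.

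Groups came from the labels. Pairs of groups were compared with limma 3.58.1 in R 4.3.3 (eBayes with trend) on log2(TPM + 1), for genes at 1 TPM or more in at least 3 of the 6 tumors, with Benjamini-Hochberg adjustment over all genes tested. Genes were called where the adjusted p was under 0.1 and the log2 fold change over 1 in size. The interaction was fitted on all 12 tumors. Exact permutation tests used scipy 1.17.1. The p-values measure the spread between 3 tumors a group, and whether these came from 3 mice was not stated.

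Named genes were the 4 genes, the 5 closest to each by Pearson r over 12 tumors and the 5 closest after subtracting group means, the Tweety, TMC, neurotrophin and vesicle SNARE families, and from other lists counts, called genes and extremes. Some genes that this rule names are not reported here. A symbol with more than 1 identifier was read from the more abundant. The motifs were chosen after the values were seen. The genes and lists were chosen with earlier results of these data known. Alternatives covered the pseudocount, filter, scaling, variance trend, tumors in the fit, a replicate block and each replicate left out.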

Additional observations from a re-analysis of the deposited data

Results flagged for a closer look

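Bpifa2, a gene of the salivary gland list, was the 1 gene called in limma for a difference between the antibody effect with and without doxorubicin, at -4.73 on the log2 scale. It measured 14.4, 21.3 and 53.7 TPM in the 3 DOX/IgG1 tumors, through which alone it passed the filter, and was listed at 0 in the other 9. The value thus restates its level in DOX/IgG1 and depends on the pseudocount, so it is given as a description and no p is given. The call was lost with a pseudocount of 0.1 or 0.5, a filter at 5 TPM, median-of-ratios scaling or the replicate block, and without any 1 of 11 of the 12 tumors. It was kept without DOX/IgG1 replicate 1, at -5.13, with no filter and without the variance trend. Since the 9 values at 0 have no spread, nothing is read from the call being kept or lost.

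Cib1, a gene of the TMC partner list, lay in opposite directions under doxorubicin with the 2 antibodies. It measured 26.1, 23.8 and 28.0 TPM in DOX/IgG1 above 14.6, 15.5 and 17.1 in IgG1, and 16.5, 15.9 and 15.7 TPM in DOX/anti-PD-1 below 34.1, 19.9 and 17.1 in anti-PD-1. Ranges also did not overlap for 14% and 14.9% of genes tested in these comparisons. Anti-PD-1 replicate 1 was far above its group, while replicate 3 was close to the DOX/anti-PD-1 tumors. The interaction was -1.16 (SE 0.40), or -1.15 without DOX/IgG1 replicate 1, and did not pass in limma, with an adjusted p of 0.993.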

How the results depend on the processing

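Of 224 log2 fold changes of the 4 genes under alternatives, 4 changed sign, all with 1 tumor left out. These sign changes were all among the 112 values of the tested comparisons. The rest of the 112 kept their direction and stayed uncalled, whatever their size. The remaining values of the 224 are from the comparisons used by the choice, which favours their direction, so no stability is read from them. Ttyh1 ranged from -1.22 to 0.09 in anti-PD-1 against IgG1 and from -0.01 to 1.65 in DOX/anti-PD-1 against anti-PD-1 when each tumor was left out, and Vamp1 from -0.20 to 0.71 in the first, including -0.01. A pseudocount of 0.1 gave Ttyh1 values of -1.68 and 1.64. With each tumor left out Ntrk2 ranged from 0.34 to 1.43 and from -2.09 to -1.0, Tmc5 from 0.09 to 0.86 and from -1.09 to -0.78, and Vamp1 from -1.32 to -0.40 in the second. No tested value of the 4 genes was called under any alternative, with 0.373 the lowest limma adjusted p, for Tmc5 in DOX/anti-PD-1 against anti-PD-1, whose adjusted p ranged up to 0.837. Counts of called genes moved more. Without the variance trend they were 1 in anti-PD-1 against IgG1 (0 with it), 3 in DOX/anti-PD-1 against anti-PD-1 (0), 13 in DOX/IgG1 against IgG1 (5), 3 for DOX/anti-PD-1 against DOX/IgG1 (0) and 3 for the interaction (1). DOX/anti-PD-1 against DOX/IgG1 gave 3 with median-of-ratios scaling and 2 with all 12 tumors in 1 fit. The interaction gave 0 with a pseudocount of 0.1 or 0.5, a filter at 5 TPM or median-of-ratios scaling and 3 with no filter. With each tumor left out the counts ranged from 0 to 4 in anti-PD-1 against IgG1, 0 to 4 in DOX/anti-PD-1 against anti-PD-1, 0 to 122 in DOX/IgG1 against IgG1, 0 to 4 for DOX/anti-PD-1 against DOX/IgG1 and 0 to 1 for the interaction. The 122 were without DOX/IgG1 replicate 1, and the cause was not tested. The count was 2 without DOX/IgG1 replicate 2 and 0 without replicate 3 or any 1 IgG1 tumor. Without the 3 DOX/IgG1 tumors the correlation had the opposite sign to that over all 12 for Ntrk2 with Tmc5 (0.65), Vamp1 with Tmc5 (0.58) and Ttyh1 with Vamp1 (-0.27), as it did for the last with group means subtracted (-0.07).

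The replicate numbers were not taken to pair the tumors, since the labels name nothing that tumors of a number share and not every pair deviated together. The correlation of deviations from the group means passed 0.1 in 4 of 18 same-numbered pairs (-0.10 to 0.13), and 8 of 12 tumors were closest to one with their own number, where 4 would be if the numbers meant nothing, which is a hint from the data and not the design. Replicate 1 also had the fewest genes above 0 in every group. With the replicate block 2 genes were called in DOX/IgG1 against IgG1 and 0 for the interaction, and the other counts were 0.

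Depth is unknown, so low levels and failed estimates cannot be told apart for a value listed at 0. With 3 tumors a group, a missed threshold does not show that values did not differ.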

Other observations

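The skeletal muscle list summed to 151, 42.7 and 590 TPM in IgG1, 555, 61.1 and 27.9 in anti-PD-1, 53.4, 166 and 226 in DOX/IgG1 and 990, 1.03 and 173 in DOX/anti-PD-1, with Myl1 its most abundant gene. The adipocyte list, led by Cfd, reached 899 TPM in DOX/IgG1 replicate 2 and 840 in DOX/anti-PD-1 replicate 1 and was 103 to 352 in the others. The leukocyte list, led by Ptprc, summed to 120 TPM in DOX/IgG1 replicate 1 and to 246 and 294 in replicates 2 and 3, against 124 to 241 in the other groups.

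The basal and myoepithelial list, led by Acta2, summed to 305, 963 and 1444 TPM in DOX/IgG1 and 258 to 1006 elsewhere, and the luminal list to 2042, 3956 and 4618 TPM in DOX/IgG1 and 2306 to 3748 elsewhere. Within DOX/IgG1, replicate 1 was thus low where replicates 2 and 3 were high. In DOX/IgG1 against IgG1, 6 of 12 luminal genes were higher with a median log2 fold change of 0.14, from -0.87 for Epcam to 1.12 for Foxa1. Of the basal genes 9 of 10 were higher with a median of 0.39, and of the fibroblast and pericyte genes 5 of 8 with a median of 0.23, down to -1.20 for Col1a1, beside 60.6% and 0.12 over all genes. With replicate 1 left out these were 8 of 12 (0.92), 8 of 10 (1.44) and 5 of 8 (0.57), beside 61.7% and 0.15, with Elf5 at -0.97, Krt14 at -0.70 and Col1a1 at -0.86 the lowest of each list. Foxa1 and Pgr of the luminal list, Mylk of the basal list and the matrix gene Dcn were at 1.12, 0.98, 1.04 and 1.37 on the log2 scale with all tumors, and none was called. The calls rest on leaving out replicate 1, which moved the values to 2.15, 2.22, 2.07 and 2.21, with limma adjusted p of 0.0445, 0.0927, 0.0654 and 0.0458. The fibroblast and pericyte list, led by Col1a1, summed to 481, 1658 and 1120 TPM in DOX/IgG1 and 581 to 1552 elsewhere, and the endothelial list, led by Pecam1, to 52.2 to 135 TPM over all tumors.

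Besides Bpifa2 and Smr3a, the genes called in DOX/IgG1 against IgG1 were the acute phase genes Saa1 and Saa2 and the histone gene Hist1h2af, all lower. The log2 fold changes were -2.88 for Saa1 and -2.58 for Saa2, each with a limma adjusted p of 0.0334. Without DOX/IgG1 replicate 1 these values were -2.90 and -2.81, and all 3 genes were also called. No gene was called, these 3 included, without DOX/IgG1 replicate 3 or without any 1 of the IgG1 tumors, and 2 genes were without DOX/IgG1 replicate 2 or with the replicate block. Hist1h2af was listed at 0 in DOX/IgG1 replicates 1 and 3 and in DOX/anti-PD-1 replicate 3.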
